A study of Drosophila melanogaster with 2 samples.

Results

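Chromatin binding of chameau was examined at 7 genes of dorsal closure: zip, jar, raw, scb, Src42A, Shark and Rac1, out of 13968 protein-coding genes in the Ensembl annotation. They were taken by name, and every peak whose summit lay inside a gene or within 2000 bp of it was assigned to that gene, whether or not a neighbour also had a claim to it. The material was whole Drosophila melanogaster embryos, aged 0 to 24 h, of the strain chm-GFP, a transgenic line in which chm is expressed as a fusion to eGFP. The promoter that drives the fusion is not given in the labels, and both samples carry the same donor entry, so they come from 1 fly line. Anti-GFP chromatin immunoprecipitation was followed by sequencing in 2 samples, given as biological replicates 1 and 2 of the only group. Chromatin had been sonicated, with a stated fragment size of 200 to 800 bp. All stages and tissues of the embryo were pooled, so binding in fewer cells and weaker binding in each cell cannot be told apart. The peak lists carry no read totals, and sequencing depth is unknown.

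The chm product, chameau, belongs to the MYST histone acetyltransferases and has a genetic link to JNK signalling. Dorsal closure is the step of embryogenesis in which the lateral epidermis of both sides moves over the amnioserosa and fuses at the midline. It runs on an actin cable and on pulses of non-muscle myosin, on small GTPases such as Rac1, on integrin and cadherin adhesion, and on tyrosine kinases that act with the JNK cascade in the leading edge cells. Of the genes studied, zip encodes the heavy chain of non-muscle myosin II and jar encodes myosin VI. The raw product restrains JNK signalling. Rac1 is a small GTPase that acts on the actin cytoskeleton, scb an alpha integrin, Src42A a Src family kinase, and Shark a tyrosine kinase with SH2 domains and ankyrin repeats.

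Peaks were present at both myosin genes, at raw, at Shark and beside Rac1, and absent at the integrin gene and the Src kinase gene. In the conservative list, which holds 4202 peaks that ranked alike in both replicates (irreproducible discovery rate, IDR, at most 0.01), 5 of the 7 genes had a summit inside or within 2000 bp, against 29% of all protein-coding genes. A summit within 500 bp of one of the gene's own starts was found at 4 genes (zip, jar, raw and Shark), against 16.8% of protein-coding genes. The 5 genes held 11 peaks, of which zip, jar and raw had 3 each and Shark and Rac1 had 1 each. At least 3 peaks were found at 4.04% of all protein-coding genes and at 14.3% of those in the longest quintile by length. All 3 genes lie in that quintile, as do scb and Src42A. Of these 5 genes 3 had a peak, against 48.6% of all genes in the quintile. In the quintiles of Shark and Rac1 the shares of all genes with a peak were 33.2% and 25.6%. Over the windows of the 7 genes, 144.5 kb in all, there were 7.61 peaks per 100 kb, against 3.64 over the windows of all protein-coding genes. The 64 other closure genes counted below had 8.62, so this density was not particular to the 7 genes. The genes were chosen with results of these data known, so these shares were not tested.

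**Figure D1:**
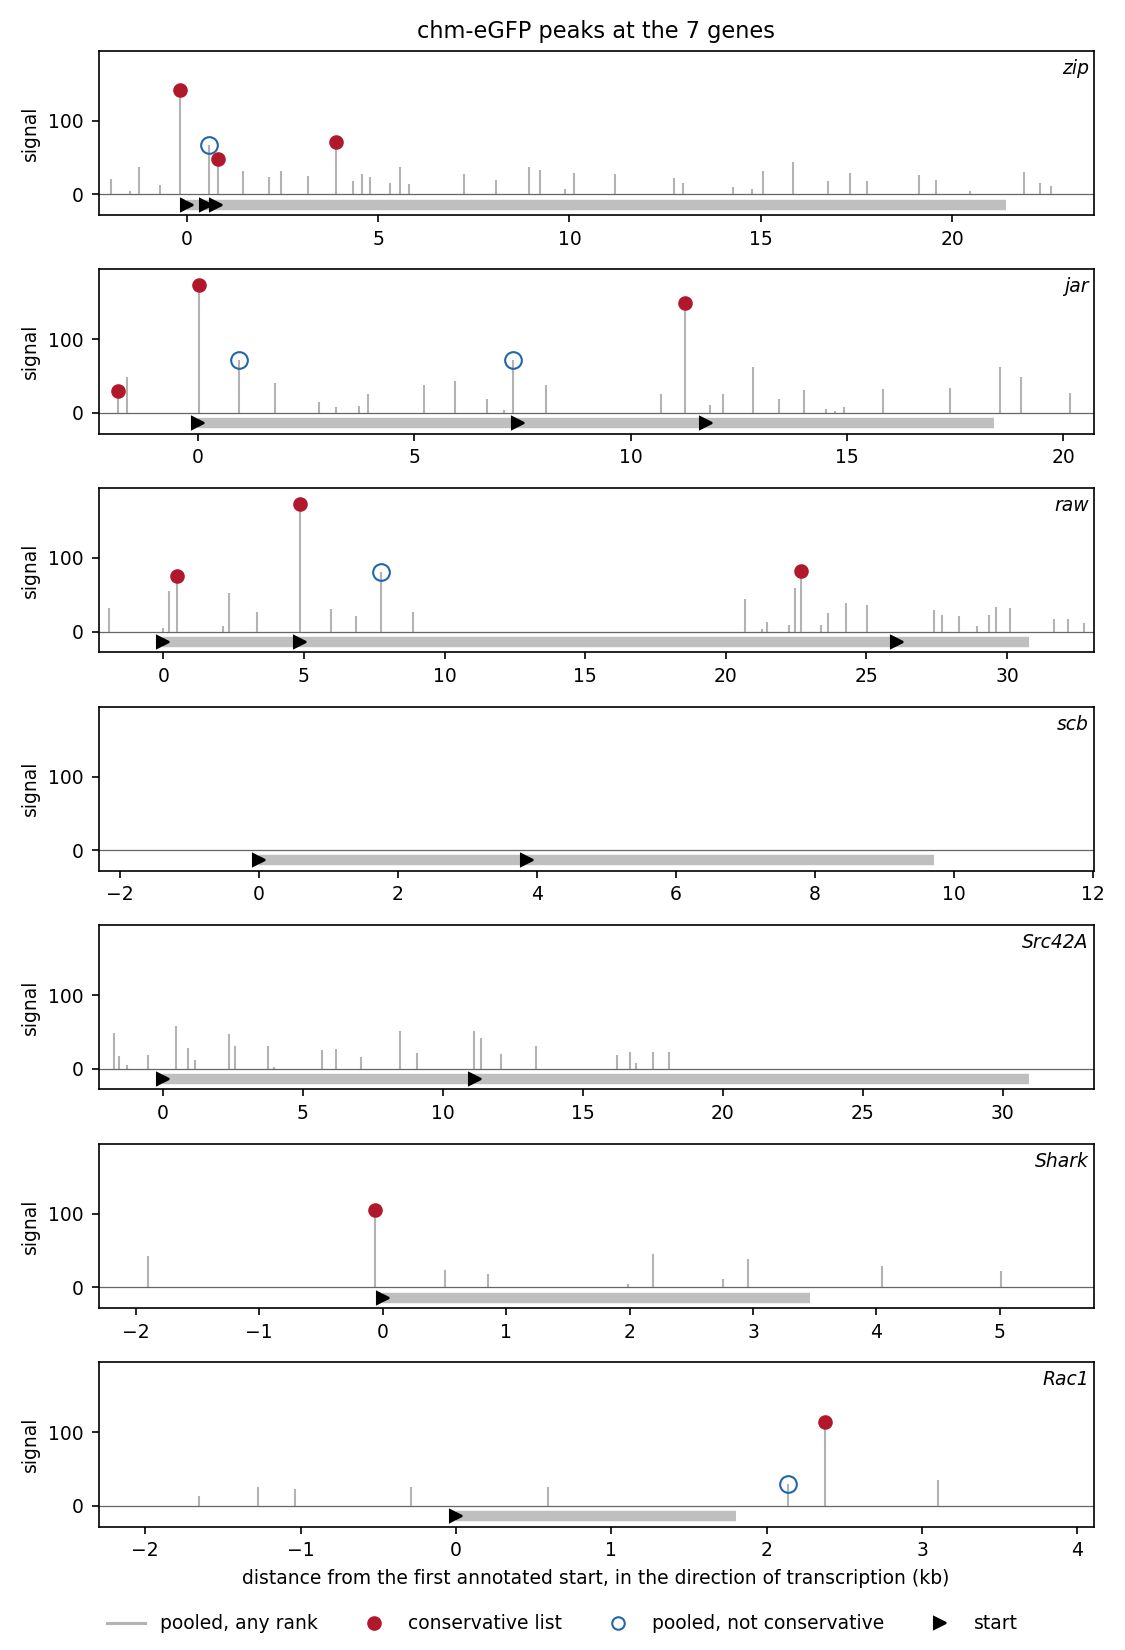
Pooled signal (vertical axis, the peak caller's signal value) of peaks at each gene against the distance from its first annotated start in kb. Red dots are the 11 conservative-list peaks, blue circles peaks past the threshold in the pooled list but not in the conservative one, grey lines pooled peaks of any rank, grey bars the gene and triangles annotated starts; the panel of scb has none of these peaks.

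At jar, both strong peaks lay close to starts of the gene. The gene covers 24252826 to 24271233 on the minus strand of 3R (dm6) and has 9 transcripts from 3 starts. The strongest of all 11 peaks (24271038 to 24271373, pooled signal 174, rank 628 of 4202) had its summit in the 5' UTR, 27 bp downstream of the first start, from which 6 of the 9 transcripts run. Its signal was 79.8 in replicate 1 and 95.1 in replicate 2, a mean of 87.5 ± 10.8 (SD, n = 2). The next peak (24259807 to 24260142, pooled signal 149, rank 874) lay in an intron, 487 bp upstream of the innermost start, which serves jar-RB and jar-RL. Here replicate 1 was the higher, with 92.6 against 69.0 (80.8 ± 16.7, SD, n = 2). Both peaks were also in the separate list of each replicate. The middle start, of jar-RM, had a summit 100 bp upstream (24263774 to 24264109) with a pooled signal of 72.6 and replicate signals of 28.3 and 39.2. With an IDR of 0.0101 it fell just short of the conservative list, but was in the pooled list. Thus the signals at the outer starts of jar were larger than that at the middle start, whose summit was in the list of neither replicate. A ranked summit of any strength within 500 bp was common, also at the starts of Src42A and Rac1. The median gap between neighbouring pooled ranked peaks was 283 bp. The third conservative peak assigned to jar (24272911 to 24273246, pooled signal 30.0, rank 4016) belonged by position to a neighbour. It lay 1846 bp upstream of jar but 50 bp from the start of Orct2, an organic cation transporter gene.

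At raw, the strongest peak marked the second of 3 starts. The gene covers 8709880 to 8740660 on the minus strand of 2L (dm6). Its strongest peak (8735618 to 8735953, pooled signal 173, rank 633) had its summit 11 bp downstream of the start of raw-RA and raw-RE, in the 5' UTR. Replicate signals there were 73.5 and 95.0 (84.3 ± 15.2, SD, n = 2). This peak and the one at the first start of jar had close signals in the pooled reads (173 and 174) and in replicate 2 (95.0 and 95.1), while in replicate 1 the jar peak was the higher, with 79.8 against 73.5. A second raw peak (8717835 to 8718170, pooled signal 82.8, rank 2589) lay in an intron, 3420 bp upstream of the innermost start, of raw-RD. Replicate signals were 39.8 and 43.6, the closest agreement among the 3 raw peaks, and it was in the list of each replicate. The third (8740000 to 8740335, pooled signal 75.9, rank 2971) lay in an intron, 492 bp downstream of the first start, with replicate signals of 29.2 and 36.9. It was in the list of neither replicate and not in the pooled list, and its IDR of 0.00946 was the closest to the limit among the 11 peaks. No summit past the threshold in any list lay within 500 bp of the raw-RD start. A further intronic peak (8732750 to 8733085, pooled signal 81.4) passed in the pooled list and in replicate 2 (signal 61.7), while replicate 1 gave 24.5. An intron of raw also holds an annotated Tirant transposable element of 8.32 kb (8723170 to 8731490) with 0 ranked summits in the pooled reads. Whether reads can be placed in that element was not tested.

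The DNA under these peaks is given below for the parts outside annotated exons, within 75 bp of the summit, on the strand of the gene (RefSeq sequence, dm6). It shows the bases beside the starts of jar and raw, the 2 intronic raw peaks, and the jar-RM site just short of the limit. Capitals mark matches to the 12 motifs searched, except at the raw peak near the first start, where they mark the arms of an inverted repeat.
jar first start, upstream side, chr3R:24271234-24271281, minus strand: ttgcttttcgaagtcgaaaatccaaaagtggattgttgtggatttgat
jar innermost start, upstream peak, chr3R:24259900-24260050, minus strand: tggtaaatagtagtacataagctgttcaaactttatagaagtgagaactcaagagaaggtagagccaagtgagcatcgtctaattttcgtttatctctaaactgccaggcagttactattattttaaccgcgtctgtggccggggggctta
jar-RM start, pooled list only, chr3R:24263867-24264017, minus strand: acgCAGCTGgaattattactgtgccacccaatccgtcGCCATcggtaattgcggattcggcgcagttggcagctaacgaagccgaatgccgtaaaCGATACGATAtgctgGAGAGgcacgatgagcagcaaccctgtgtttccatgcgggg
raw second start, upstream side, chr2L:8735798-8735861, minus strand: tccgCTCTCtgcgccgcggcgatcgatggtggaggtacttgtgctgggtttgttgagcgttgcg
raw inner intron, chr2L:8717928-8718078, minus strand: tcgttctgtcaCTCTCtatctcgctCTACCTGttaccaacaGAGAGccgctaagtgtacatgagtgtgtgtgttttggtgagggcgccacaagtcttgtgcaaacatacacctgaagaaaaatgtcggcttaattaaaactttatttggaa
raw intron near the first start, chr2L:8740093-8740243, minus strand: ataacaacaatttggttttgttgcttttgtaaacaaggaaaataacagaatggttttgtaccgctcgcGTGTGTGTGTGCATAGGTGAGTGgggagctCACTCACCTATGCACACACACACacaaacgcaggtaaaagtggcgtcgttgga

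The inner intron of raw held both a GAGAG sequence on each strand, the core bound by GAGA factor, and a CAGGTAG on the opposite strand, the sequence bound by the early embryonic activator Zelda. CAGGTAG was in the 201 bp around this summit alone among the 11 peaks, and in 1.26% of all 4195 conservative summits on the chromosome arms. GAGAG was found around 6 of the 11 summits, against 33.1% of all summits. Those 6 were the peaks at the first start of jar, at Orct2, at the second start and inner intron of raw, at the outer start of zip and beside Rac1. With 50 bp on each side instead of 100 bp the GAGAG count was 2, against 17.7%, and with 250 bp it was 10, against 59%. The AP-1 sequence TGANTCA, bound by the Fos and Jun proteins through which JNK acts, was found at 1 summit, that upstream of zip, against 4.24% of all summits. GCCAT, the core bound by Pho, was at 0 of 11 summits against 28.4%, and TATCGATA, the DNA replication-related element, at 0 of 11 against 2.98%. CGATA, the core bound by BEAF-32, is contained in the latter and was at 1 of 11 against 27.7%. CACGTG was at 1 summit, the one at Orct2, against 2.67%. GCCGNCG was at 1, the second start of raw, against 9.87%. CAGCTG was at 2 against 12.04% and GGAATG at 1 against 7.15%. CTTTGAT (2.38% of all summits) and GTCACAC (4.72%) were at none. With 250 bp on each side GCCAT was at 3 summits, against 58.6%, and CGATA at 4, against 52.3%. Both strands were searched, and these counts describe letters and not sites of binding. The jar-RM site, which is not among the 11, held the BEAF-32 core in tandem and 1 match each to the GAGA factor core, the Pho core and a core promoter motif.

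At the raw peak near the first start, the summit lay on a perfect inverted repeat whose arms of 23 bp are separated by 7 bp. The 151 bp around the other 10 summits held inverted repeats with arms of 6 or 7 bp, and the median over all conservative summits was 7 bp. An arm of at least 23 bp was found at 1 of 4195 summits, this one. The repeat was looked for after its sequence had been seen. Base composition also varied among the peaks. GC content over 201 bp was highest at the second start of raw (55.2%) and lowest beside Rac1 (30.8%), with a median of 42.8% over all conservative summits.

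At zip, peaks clustered at the upstream end of the gene, and the strongest lay beyond it, in the neighbouring gene uzip. The gene covers 24990570 to 25011965 on the minus strand of 2R (dm6), with 9 transcripts from 3 starts that lie within 757 bp of each other. The strongest peak (25011965 to 25012300, pooled signal 141, rank 970) had its summit 168 bp upstream of the outermost zip start, of zip-RE. That summit also lay in the 5' UTR of uzip, 71 bp from the start of this divergent gene, so the peak cannot be given to either gene alone. Replicate signals were 64.8 and 86.1 (75.4 ± 15.1, SD, n = 2). It was in the lists of both replicates. The start used by 7 of the 9 zip transcripts (25011463) had weaker and less reproducible signal. In the pooled list its summit lay 71 bp downstream (25011224 to 25011559, signal 67.5), where replicate 1 gave 18.2 and replicate 2 gave 40.4. The conservative list instead held an adjoining peak (25010984 to 25011319, pooled signal 47.7, rank 3959), 56 bp downstream of the start of zip-RG. The replicate 2 peak paired with both of these was the same one. The remaining zip peak (25007884 to 25008219, pooled signal 71.3, rank 3215) lay in an intron, 3156 bp downstream of zip-RG, with replicate signals of 42.0 and 38.2. It was past the threshold in replicate 2 but not in replicate 1, where its IDR was 0.0361.

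At Shark, the single start carried a single peak. The gene covers 3459 bp (16199426 to 16202884, minus strand of 2R, dm6) and has 1 transcript. The peak (16202778 to 16203113, pooled signal 106, rank 1717) had its summit 62 bp upstream of the start, outside any protein-coding gene. Replicate signals were 43.6 and 58.9 (51.2 ± 10.8, SD, n = 2), and it was in the list of each replicate and in the pooled list. No other gene start was nearer to this summit.

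At Rac1, the peak lay beyond the gene and not at its start. Rac1 covers 1300879 to 1302683 on the minus strand of 3L (dm6). The peak (1300138 to 1300473, pooled signal 114, rank 1492) had its summit 2377 bp from the Rac1 start, past the 3' end, in the 3' UTR of the neighbouring gene scf, whose nearest start was 1420 bp away. Replicate signals were 49.998 and 52.5 (51.2 ± 1.74, SD, n = 2), the smallest difference among the 5 genes' strongest peaks. Between the replicates the IDR of this peak was 0.00114. Each replicate's own list carries a separate IDR, and by that the peak was past the threshold in replicate 1 alone (0.00606, against 0.0206 in replicate 2). A weaker adjoining peak (1300377 to 1300712, pooled signal 29.3) passed in the pooled and replicate 1 lists only. Its replicate signals were 13.2 and 12.98. Within 500 bp of the Rac1 start, the strongest ranked pooled summit had a signal of 25.9. The paralogue Rac2 had a peak 86 bp from its start (pooled signal 78.7, replicate signals 40.2 and 42.9).

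Src42A had no peak past the threshold in any list, although it is the longest of the 7 genes at 30952 bp (5981844 to 6012795, plus strand of 2R, dm6). The pooled ranked list held 25 summits in its window. The strongest lay in the 5' UTR, 470 bp downstream of the first start, with a pooled signal of 57.6 (rank 6163 of 118204). The replicates differed there, with 35.8 in replicate 1 and 14.02 in replicate 2, and the IDR of the pair was 0.169. In the pooled ranked list the IDR of this summit was 0.0167, against a limit of 0.01. There an intronic summit (signal 51.2) had 0.0114. A pooled signal below 57.6 was found at 8.81% of the conservative-list peaks, so the Src42A summit stood at the low end of their range. The second start had a summit 42 bp away with a pooled signal of 51.1. The conservative list had a gap of 60.7 kb around Src42A, which includes the 30952 bp of the gene. How common gaps of this length are in that list was not counted.

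For scb (15248784 to 15258498, plus strand of 2R, dm6), the lists were empty even of weak peaks. Of the 7 genes, scb alone had no ranked summit in the pooled reads inside or within 2000 bp, whereas 83.4% of protein-coding genes had one. Among the longest quintile of genes, to which scb belongs with 9715 bp, 9.02% had none. No ranked summit of replicate 1, replicate 2 or the replicate pair lay in its window. The nearest pooled ranked peaks left a gap of 45.7 kb, against a median gap of 283 bp. Of 115937 gaps between neighbouring peaks on the chromosome arms, 177 were at least as long. This gap also held the whole of Fs, the follistatin gene, and of ItgaPS4, another alpha integrin gene. In replicate 1 the gap was 23.3 kb and in replicate 2 it was 46.7 kb. With depth unknown, binding below the limit of detection cannot be assessed here. Whether reads can be placed in this gap was not tested, so the empty lists do not show that scb is unbound.

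Both replicates passed the threshold mainly at the stronger peaks. Of the 11 peaks, 6 were past the threshold in both replicates (54.5%), against 46.3% of all conservative peaks, and 2 were in neither, against 19.6% of all. The 6 were the strongest peak of zip and of Shark, both strong jar peaks, and 2 raw peaks. Replicate 2 gave the higher signal at 9 of the 11 peaks, and replicate 1 at the jar-RB peak and the intronic zip peak. The median signal over all peaks past the threshold ran the other way, 57.8 in replicate 1 and 50.6 in replicate 2. The scale of these values is not stated, so ranks were also compared. The first-start jar peak ranked 984 of 104106 in replicate 1 and 558 of 88563 in replicate 2, and the raw-RA peak 1166 and 559. The jar-RB peak ranked 713 and 1118. No test of these differences was made.

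**Figure D2:**
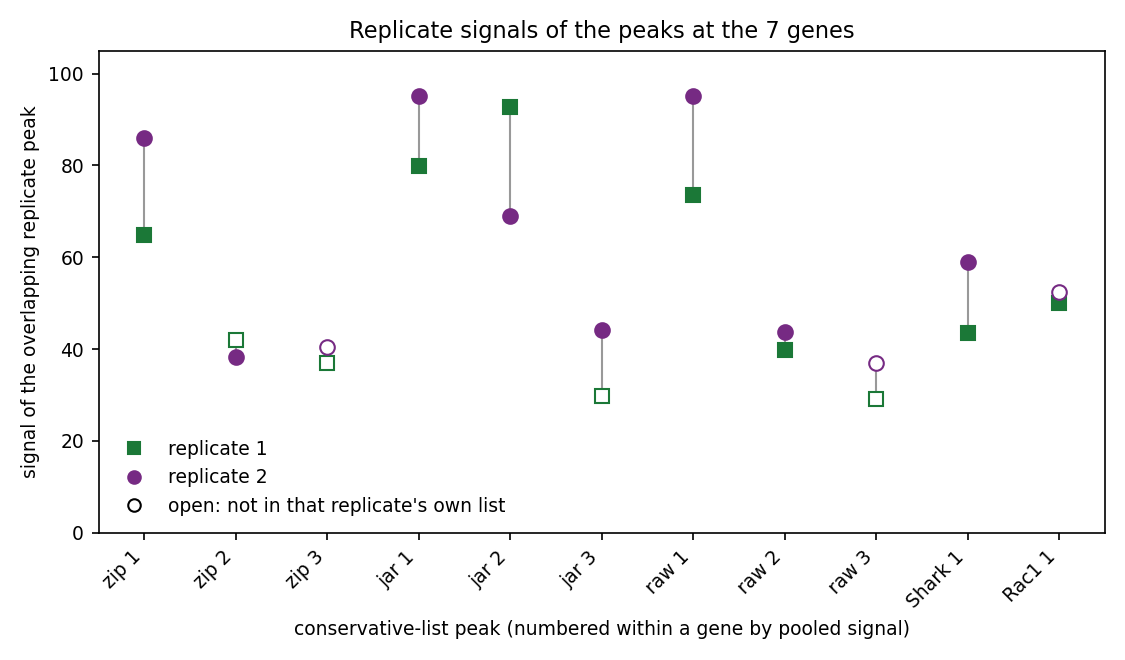
Signal of the overlapping peak in replicate 1 (green squares) and replicate 2 (purple circles) for each of the 11 conservative-list peaks, numbered within a gene by pooled signal; open symbols are peaks not in that replicate's own list. The 4 peaks with a signal above 60 in both replicates are at zip, jar (2 peaks) and raw, and are in both lists.

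In strength, the peaks of these genes spread over most of the list, from rank 628 to rank 4016. Pooled signals ran from 30.0 to 174 with a median of 106, against a median of 94.1 over all conservative peaks and a highest value of 1374. Of the 11 peaks, 6 were above the median of the list. By their strongest peak the order was jar (174), raw (173), zip (141), Rac1 (114) and Shark (106). The replicate means were in a like order except at the end, with 87.5, 84.3, 75.4, 51.2 and 51.2. Both replicates gave the order jar, raw, zip, with jar and raw close in replicate 2, and no test of the order was made. Rac1 and Shark had the same mean. The jar peak reached the top 14.9% of the conservative list and the Shark peak the top 40.9%.

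**Figure D3:**
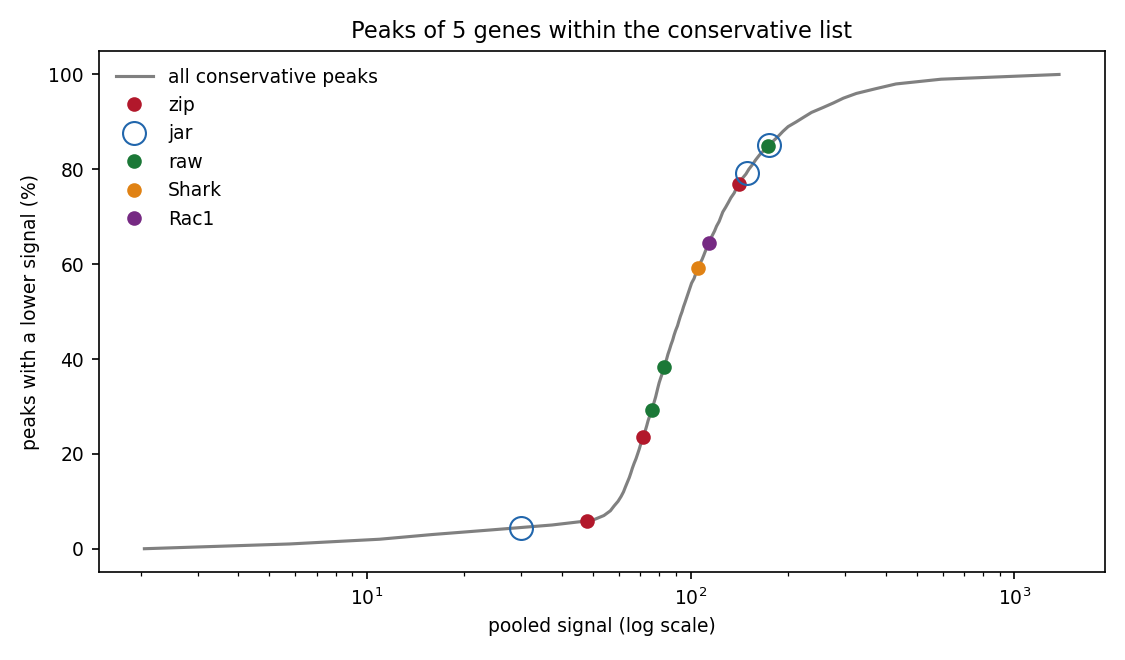
Share of the 4202 conservative-list peaks with a lower signal (vertical axis, %) against pooled signal (log scale), with the peaks of zip, jar, raw, Shark and Rac1 marked. The strongest jar and raw peaks coincide near a signal of 174, and the weakest jar and zip peaks lie at 30.0 and 47.7, in the low tail.

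Other genes of the closure machinery were then counted, from a list of 64 written from textbook knowledge. Earlier results of these data were known when the list was written, so its shares were not tested. Of these, 46 (71.9%) had a conservative peak inside or within 2000 bp and 37 (57.8%) one at a start, against the 29% and 16.8% of all protein-coding genes given above. Over all protein-coding genes this share rose with length, while over the listed genes it did not follow length. In the longest quintile of genes 33 of 43 listed genes had a peak (76.7%), against 48.6% of all genes of that length. In the fourth quintile it was 7 of 13 (53.8% against 33.2%), and in the third 6 of 8 (75% against 25.6%). What length contributes beyond these quintiles was not tested. By role, peaks were found at 12 of 15 genes of the actin and myosin machinery and 9 of 15 junction genes. They were also found at 11 of 14 integrin and matrix adhesion genes and 7 of 10 genes listed as kinases and septins. That last role included drpr, which is neither and had a peak. Some of the peaks counted lay at the start of a neighbour, such as that of Mbs, 13 bp from the start of Diap1. The strongest peak of shg was also that of cpa. With only the nearest protein-coding start counted, 38 of the 64 genes had a peak, against 16.1% of all protein-coding genes.

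**Figure D4:**
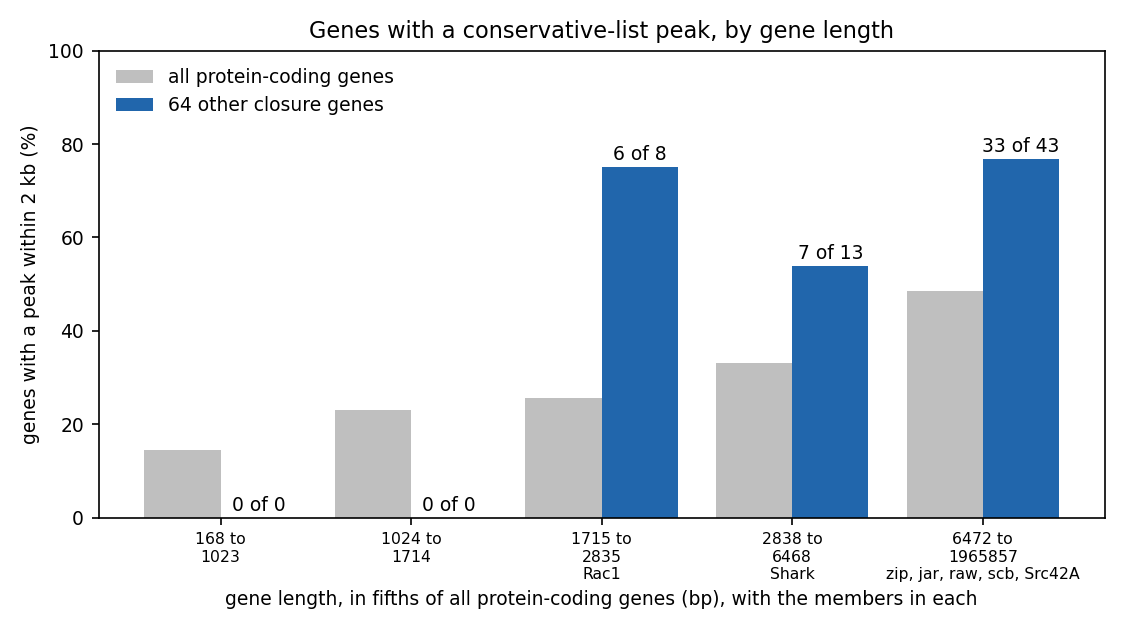
Share of genes with a conservative-list peak inside or within 2 kb (vertical axis, %) by quintile of gene length, for all protein-coding genes (grey bars) and the 64 other closure genes (blue bars, with counts). The 7 genes are named under their quintile; no listed gene falls in the shortest 2.

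The 8 listed genes with the strongest peaks stood above all 7 genes described here. Mtl, a small GTPase related to Rac1, had a signal of 653 at a summit 232 bp from its start and 120 bp from that of its neighbour CG5611. The replicates gave 323 and 330. At cno, which encodes the afadin homologue, the strongest of 5 peaks reached 651, but the replicates gave 548 and 96.2. The summit of that peak lay 1920 bp from a start of cno. Btk, a Tec family kinase, had 443 at 157 bp from a start, with 210 and 211 in the replicates. Moe (moesin) had 264, Csk (a kinase that inhibits Src kinases) 253, tsr (cofilin) 239, the adhesion gene ed 236 and the integrin-associated gene Zasp52 236. The ed summit lay 79 bp from a start of its gene. Those of Csk, tsr and Moe lay 1036, 1434 and 1729 bp from one, and that of Zasp52 13616 bp. At Csk the replicates gave 64.4 and 188. The partner of zip, the regulatory light chain gene sqh, had 1 peak 34 bp from its start (signal 133, replicates 60.6 and 73.7). The beta integrin gene mys had 138 at 36 bp from a start (replicates 76.5 and 65.6). Act42A, alpha-Cat, Ilk and Ack, the first by symbol without a peak in each of these 4 roles, had none. The other Src kinase gene, Src64B, had a peak 146 bp from a start (signal 189, replicates 90.7 and 97.1).

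With a single group there is no pattern across conditions to match, so likeness was taken as the log2 difference between strongest signals. The nearest listed gene was mys for zip (0.03), Rok, the kinase that activates myosin, for jar (0.08) and raw (0.07), LanB1, a laminin subunit gene, for Shark (0.00077) and chic, the profilin gene, for Rac1 (0.02). The Rok summit lay 14 bp from the start of RpS19a, a ribosomal protein gene, and 466 bp from that of Rok. That of chic lay 7841 bp from a start of chic and 2401 bp from that of Ucp4B. With 46 listed genes to choose from, a close signal was easily found and says nothing of shared function.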

How the data were processed

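Anti-GFP ChIP-seq peak lists of 2 biological replicates of chm-eGFP embryos were used. Per the file headers and notes deposited with them, the lists are on dm6, were derived from alignments and a control file, and were made per replicate and on the reads of both. No source used here names the aligner or the caller. The signal column deposited by the authors is the peak caller's value on an unstated scale. The deposited score scales the IDR, and its lowest value past the threshold is 830. The deposited −log10 columns hold the peak q-value and the IDR. The conservative list lacked 195 of 4397 ranked peaks with an IDR of at most 0.01 (0 of them in the windows of the 7 genes).

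Summits (start plus offset) were placed on Ensembl release 115 models with Python 3.11.15. All peaks and genes ended within the RefSeq arm lengths. Replicate signals came from the ranked peak of each replicate with the widest overlap. A peak counted as present in another list when it covered 50% of the shorter peak. The placement of summits was tested on simulated data. Alternatives changed the gene window (0 or 5000 bp), the promoter window (250 or 1000 bp), the list, the signal minimum, the motif window and the assignment rule. The genes, lists and motifs were chosen with earlier results of these data known. Of the 64 other genes, those named were the 8 strongest, the first without a peak in each role given, and the gene nearest in signal to each of the 5 with a peak. Others (sqh, mys, Src64B, Rac2) were picked once their values had been seen. The count of 1 role of that list is not reported here.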

Additional observations from a re-analysis of the deposited data

How the results depend on the processing

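Of the 7 genes, 5 had a peak in the main setting and 4 or 5 in every other setting but one. With no window around the gene (summits inside it only) it was 3 genes and 7 peaks rather than 5 genes and 11 peaks, since the peaks of Shark and Rac1, the strongest zip peak (signal 141) and the jar peak at Orct2 lie outside the genes. The stronger 50% of peaks left 6 of the 11. Other settings gave 8 to 15 peaks, and 4 genes had a promoter peak in each of the 6 alternatives run. With only the nearest protein-coding start counted, Rac1 lost its peak and 4 genes remained. Without replicate 1 (the list of replicate 2 alone) 4 genes and 12 peaks were found, again without Rac1. Without replicate 2 these were 5 genes and 9 peaks. Of the 64 other genes, 34 had a peak with no window, 38 with the nearest start only and 52 with 5000 bp, against 46. The share of all protein-coding genes with a peak moved too, from 29% to 11.9% with no window and 40.2% with 5000 bp, and was 16.1% with the nearest start only, 19.1% with the stronger 50% of peaks, 35.7% in the pooled list, 29.4% without replicate 1 and 24.4% without replicate 2. The place of each gene's strongest peak in its list was counted as moved in 5 of 14 comparisons. For zip, jar, raw and Shark the measure was the replicate SD, taken from the same 2 lists as the settings without a replicate. Rac1 had no peak in the list of replicate 2 and so no such SD. For Shark the place of the strongest peak was the top 77.8% in replicate 1 and the top 36.7% in replicate 2. No paired analysis was possible because there is only 1 group and no test between groups. The unknown depth limits what absence at scb and Src42A can show. At scb, where even weak peaks were missing, the placement of reads was also not tested.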
